A study of Mus musculus with 13 samples.

Results

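Sox9 peaks were examined around 5 mouse genes that build the sulfated sugar chains of cartilage, Papss2, Slc26a2, Chst11, Chsy1 and Ext1. A peak belonged to a gene when its centre lay in a fixed window around that gene on the mm9 assembly. Of the 27656 peaks of rib chondrocytes 79 fell in the 5 windows, and of the 17440 peaks of nasal chondrocytes 46 did. The submitters divided the rib peaks into Class I and Class II, and the windows held 7 of the 6794 Class I and 72 of the 20862 Class II peaks. Together the windows covered 1340 kb, or 0.0509% of the chromosomes from their first base to their last peak, and held 0.286% of the rib peaks and 0.264% of the nasal peaks.

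The study profiled chondrocytes, the cells that make cartilage, from untreated wild-type ICR mice by chromatin immunoprecipitation and sequencing (ChIP-seq). Rib chondrocytes were freed by enzyme digestion at postnatal day 1, and nasal septum chondrocytes at embryonic day 17.5, and both were precipitated with the same Sox9 antibody. Each tissue gave 1 Sox9 library, so tissue and stage cannot be told apart and no comparison below has a replicate check. Histone mark, p300, RNA polymerase II, input and IgG libraries of the same series were not analysed here, and the labels do not say whether cells of several animals were pooled. The lists hold no height, so the reads behind a peak are unknown and peaks are described by position, class, width, place in the list and overlap. Intervals are 95% exact (Clopper-Pearson) binomial intervals, which cover counting error only, and peaks of a library are not replicates.

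Sox9 is an HMG-box transcription factor that chondrocytes need to form and to produce their matrix. The main proteoglycan of that matrix, aggrecan, carries many chondroitin sulfate chains, whose negative charge draws water into cartilage, while heparan sulfate chains at the cell surface bind growth factors and limit their spread. Both chains need activated sulfate. Slc26a2 is the transporter that brings sulfate into the cell, and Papss2 is the enzyme that turns it into PAPS, the sulfate donor of sulfotransferases. Chsy1 is a chondroitin synthase that extends the chondroitin chain, Chst11 is the chondroitin 4-O-sulfotransferase that places sulfate on its N-acetylgalactosamine, and Ext1 is a subunit of the polymerase that extends heparan chains. Loss of SLC26A2 or PAPSS2 function is known from skeletal dysplasias, and loss of EXT1 from hereditary multiple exostoses.

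The windows may reach past the genes, which was not measured. In RefSeq gene order (GRCm38.p6, used for names only) the protein-coding neighbours were Minpp1 and Atad1 for Papss2, Eid3 and Slc41a2 for Chst11, Selenos and Lrrk1 for Chsy1, Med30 and Samd12 for Ext1, and LOC108168367 and Pde6a for Slc26a2. Gene starts and exons on mm9 were not used here. A peak is therefore located in a window and not in an exon, an intron or a promoter, and which gene it acts on was not tested.

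Promoter sequences in RefSeq, from 250 bases before to 50 bases after a transcript start, are shown for 3 of the 5 genes. Any promoter on the chromosome of Slc26a2 was left out by choice, and none is shown for Ext1. Slc26a2 was not among the pathway genes found with a CCAAT or GGGCGG word in a promoter. The 7 Class I peaks lay in the windows of the 3 genes shown, and the letters under the peaks themselves were not read. Capitals mark the words CCAAT and GGGCGG on either strand (ATTGG and CCGCCC on the other), which were chosen after the sequences were seen. The sequences run 5′ to 3′ on the plus strand of GRCm38.p6, another build than the peaks: Papss2 at chr19:32595465-32595764 and chr19:32619755-32620054, Chst11 at chr10:82985247-82985546 and Chsy1 at chr7:66109242-66109541.
Papss2 first start: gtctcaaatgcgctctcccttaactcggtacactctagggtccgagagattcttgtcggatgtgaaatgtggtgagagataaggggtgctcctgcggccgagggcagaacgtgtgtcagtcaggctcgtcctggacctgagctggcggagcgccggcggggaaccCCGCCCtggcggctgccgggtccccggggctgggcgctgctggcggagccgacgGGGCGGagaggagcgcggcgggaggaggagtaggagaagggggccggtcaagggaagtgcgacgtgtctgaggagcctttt
Papss2 second start: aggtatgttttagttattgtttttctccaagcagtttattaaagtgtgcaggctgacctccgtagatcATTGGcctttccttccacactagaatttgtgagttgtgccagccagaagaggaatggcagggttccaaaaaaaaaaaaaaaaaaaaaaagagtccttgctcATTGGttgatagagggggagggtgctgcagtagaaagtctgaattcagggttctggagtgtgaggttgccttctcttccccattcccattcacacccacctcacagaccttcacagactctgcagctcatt
Chst11: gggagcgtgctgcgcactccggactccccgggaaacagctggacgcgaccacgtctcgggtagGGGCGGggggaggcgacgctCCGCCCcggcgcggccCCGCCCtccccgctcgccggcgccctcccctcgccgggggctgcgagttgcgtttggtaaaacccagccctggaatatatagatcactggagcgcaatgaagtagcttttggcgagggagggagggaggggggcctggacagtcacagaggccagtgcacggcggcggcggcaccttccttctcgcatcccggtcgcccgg
Chsy1: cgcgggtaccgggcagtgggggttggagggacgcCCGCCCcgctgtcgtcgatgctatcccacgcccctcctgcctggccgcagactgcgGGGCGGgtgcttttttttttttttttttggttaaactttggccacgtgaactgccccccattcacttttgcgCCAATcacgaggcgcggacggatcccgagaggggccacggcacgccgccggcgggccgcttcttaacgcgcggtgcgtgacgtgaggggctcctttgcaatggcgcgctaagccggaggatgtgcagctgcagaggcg

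None of these 4 promoters held ACAAAG or ACAATG on either strand, the core words recognised by SOX factors. Of all 32851 RefSeq promoters 28.6% held at least 1 of them, 18.7% ACAAAG and 12.6% ACAATG. Among 42 genes of sulfate supply, chain synthesis and chain modification, 32 had a RefSeq promoter, and these 32 genes had 42 promoters together. A SOX word was held by 3 of these 42 promoters, in the 3 genes Chst3, Slc35b3 and Xylt2. GGGCGG occurred 2 times at the first Papss2 start, 3 times in Chst11 and 2 times in Chsy1. At least 1 was held by 35.7% of all promoters and by 25 of the 42 pathway promoters, so the word is common among the pathway genes. CCAAT occurred 2 times at the second Papss2 start and 1 time in Chsy1, and was held by 37.4% of all promoters and by 20 of the 42 pathway promoters. GC content was 66.3% at the first Papss2 start, 71% in Chst11 and 65.3% in Chsy1, and 44.3% at the second Papss2 start, beside a median of 52.7% over all promoters. A word match is a description of these letters and not a binding site.

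The windows differed widely in how many peaks they held. Rib peaks numbered 37 in the Chst11 window of 340 kb, 19 in the Chsy1 window of 210 kb, 13 in the Papss2 window of 220 kb, 5 in the Slc26a2 window of 150 kb and 5 in the Ext1 window of 420 kb. Per 100 kb this was 10.9 for Chst11, 9.05 for Chsy1, 5.91 for Papss2, 3.33 for Slc26a2 and 1.19 for Ext1, where the whole rib list had 1.05. Nasal peaks followed the same order of genes, with 6.76, 5.24, 3.18, 2.67 and 0.238 per 100 kb against 0.662 for the whole nasal list.

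To set these counts beside the rest of the genome, each chromosome was cut into tiles of a window's width from its first base to its last peak. For Chst11, 1 of 7735 tiles (0.0129%) held at least 37 rib peaks and 8 tiles (0.103%) held at least 23 nasal peaks. For Chsy1, 0.311% of tiles held at least 19 rib peaks and 0.91% at least 11 nasal peaks. For Papss2 the shares were 2.09% for 13 rib peaks and 4.82% for 7 nasal peaks. For Slc26a2 they were 11.2% for 5 rib peaks and 8.82% for 4 nasal peaks. For Ext1, 35.5% of tiles held at least 5 rib peaks and 57.6% held at least 1 nasal peak, so such counts are common among the tiles. The tiles include sequence without genes or without mappable reads, and the genes were chosen with earlier results of these data known, so the shares describe where the windows stand and are no test.

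**Figure D1:**
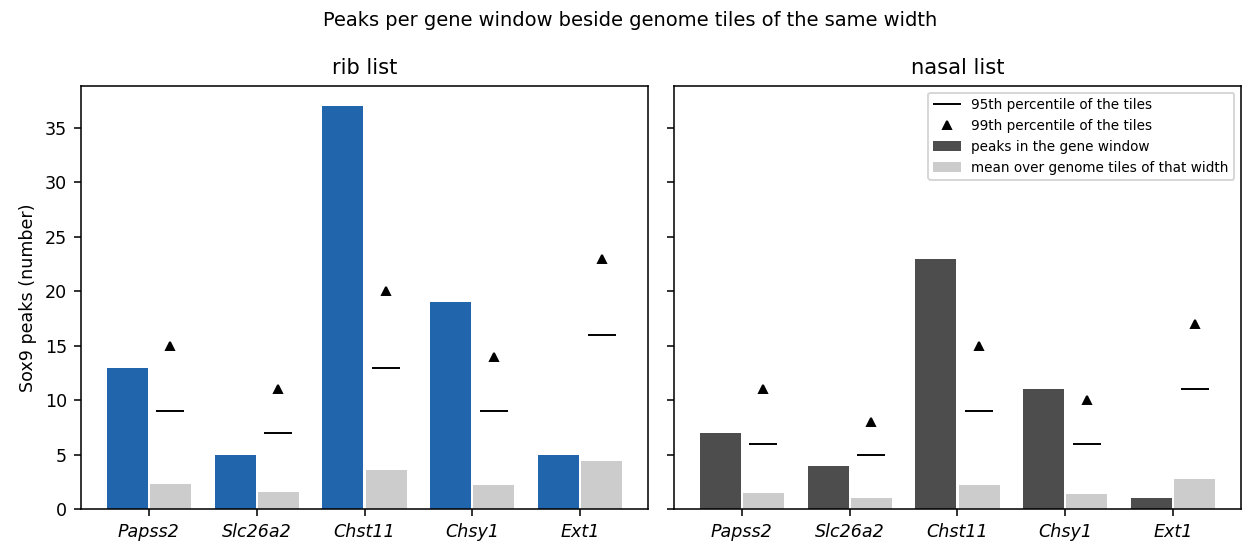
Sox9 peaks in each gene window (coloured bars, number of peaks) beside the mean of all genome tiles of the same width (light bars), with the 95th percentile (line) and the 99th percentile (triangle) of the tiles, for the rib list on the left and the nasal list on the right. Chst11 with 37 rib and 23 nasal peaks and Chsy1 with 19 and 11 stand above the 99th percentile in both lists, and Ext1 with 5 and 1 stands near or below the tile means of 4.4 and 2.77.

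**Figure D2:**
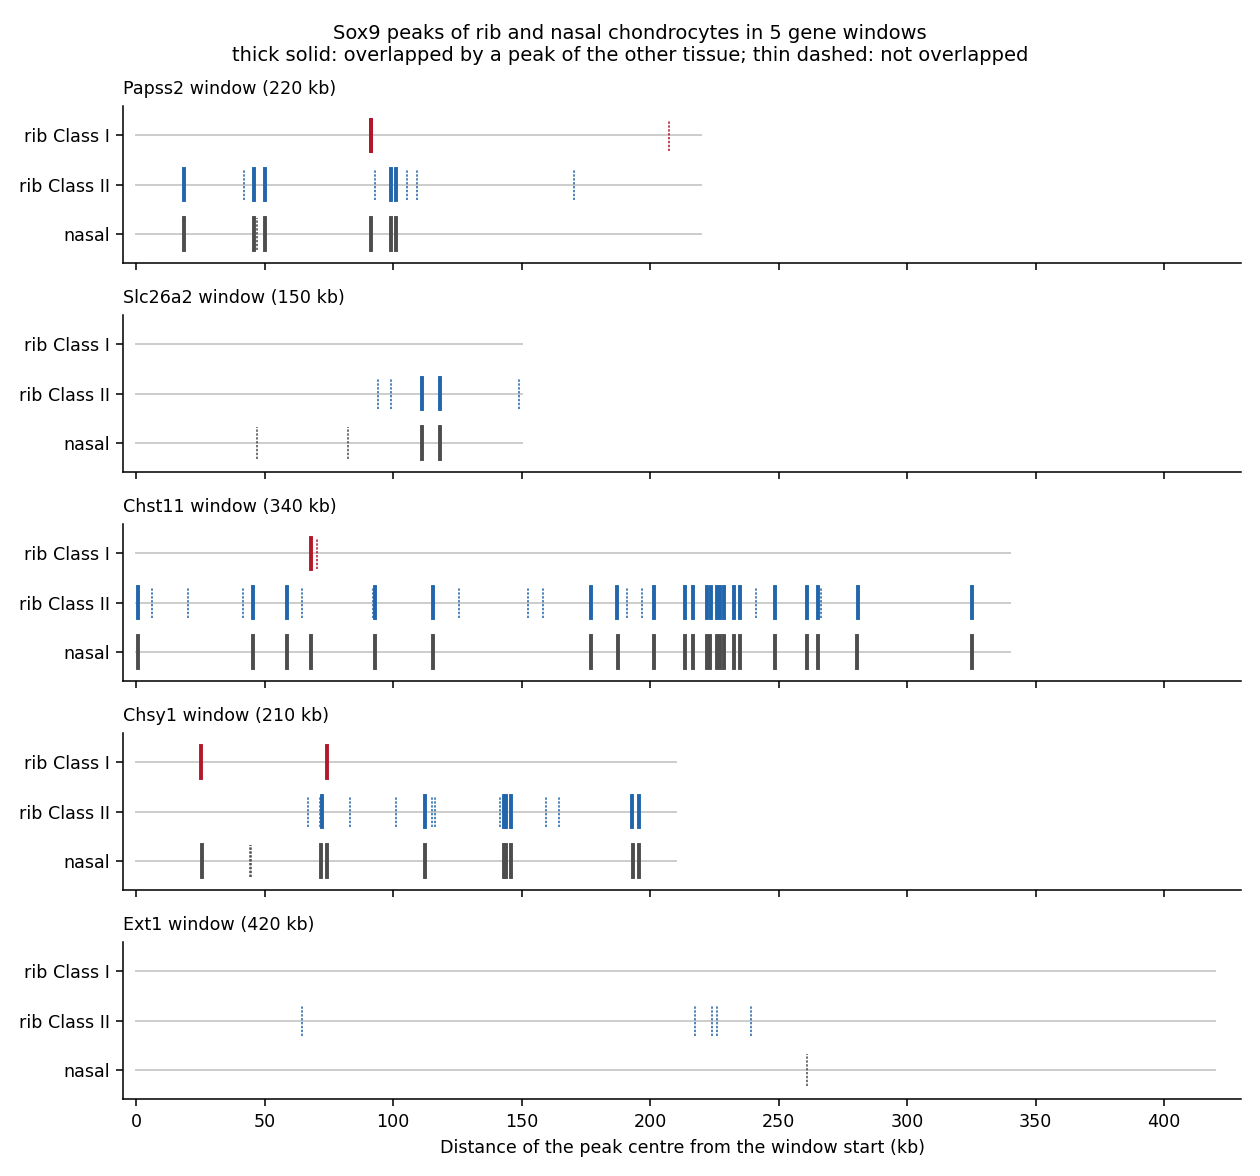
Position of every Sox9 peak in the 5 windows, as distance of the peak centre from the window start in kb, on rows for rib Class I, rib Class II and nasal peaks. Thick solid marks are peaks overlapped by a peak of the other tissue and thin dashed marks are not; the 23 nasal marks of Chst11 are all thick, and the 5 rib marks and 1 nasal mark of Ext1 are all thin.

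Sulfate supply was represented by Slc26a2 and Papss2. The Slc26a2 window on chromosome 18 held 5 rib peaks, all Class II, of which nasal peaks overlapped 2. Its leading peak, 61401245 to 61401495, stood at place 155 of 27656 in the rib list, within the first 0.56%. The nasal peak there, 61401273 to 61401474, stood at place 676 of 17440, lay wholly inside the rib peak, and its centre was 3.5 bp from the rib centre. Of all tiles of that width, 0.826% held a rib peak at place 155 or earlier, although 11.2% held as many peaks. The window held fewer peaks than those of Chst11, Chsy1 and Papss2, though more than the tile mean of 1.57, and 1 of them stood very early in the list. The nasal peak was early too, with 3.53% of tiles holding a nasal peak at place 676 or earlier.

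The other shared peak of the Slc26a2 window, 61408233 to 61408346, lay in the same 7.1 kb stretch, at rib place 10661 and nasal place 13263. The 3 remaining rib peaks had no nasal partner, with the nearest nasal peak 11769 bp, 11993 bp and 30344 bp away, and they stood at rib places 21096, 4387 and 16557. Of the nasal peaks, 61336874 to 61336960 and 61372182 to 61372336 had no rib partner. No rib peak stood in the lower 94.1 kb of the window, and the nearest rib peak below the window, of Class I, was 85.5 kb below that end. The upper window end lay 1.06 kb beyond the last rib peak, and the next rib peak stood 20.5 kb past that end.

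Papss2, the PAPS synthase, held 13 rib peaks on chromosome 19, 3 of Class I and 10 of Class II, and 7 nasal peaks. Most of them formed a pair of groups, below which stood a Class II peak, 32598395 to 32598605, at place 14174 with a nasal partner. The lower group, 32621969 to 32630180, held 3 Class II peaks in 8.21 kb. Among them 32625977 to 32626172 stood at place 106 of the rib list and 32630073 to 32630180 at place 149, the first 0.383% and 0.539%. Of the tiles of that width 0.844% held a rib peak at place 106 or earlier. Both had a nasal partner, but at nasal places 2818 and 11511, which is 16.2% and 66% of the way down the nasal list. The second of these peaks was thus among the earliest in rib and in the later part of the list in nasal cartilage. A further nasal peak, 32626749 to 32626994, was the earliest nasal peak of the window at place 1068 and had no rib partner, with the nearest rib peak 576 bp away. Of the tiles 7.59% held a nasal peak at that place or earlier.

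The upper Papss2 group, 32671185 to 32689535, held 7 rib peaks in 18.4 kb, 2 of Class I and 5 of Class II, and 3 nasal peaks. The Class I peaks, 32671185 to 32671471 at place 16606 and 32671447 to 32671796 at place 11796, shared bases with each other and were met by a single nasal peak, 32671430 to 32671582 at nasal place 6090. They therefore count as 2 overlapped rib peaks but 1 nasal peak. Just above them, the Class II peak 32672909 to 32673083 stood early, at place 1933, and the nearest nasal peak was 1326 bp away. The Class II peak 32680920 to 32681078 at place 1415 was the third earliest of the window and shared 37 bp with a nasal peak at place 9662. Beyond this group came the widest gap, of 60.8 kb, then a Class II peak at place 19815 and the third Class I peak, 32787187 to 32787259, at place 27176, neither with a nasal partner. The last of these lay 12.8 kb inside the upper window end and the next rib peak, of Class I, 30.8 kb outside it, while a Class II peak at place 27358 stood 3.84 kb below the lower end. In all, nasal peaks overlapped 7 of the 13 rib peaks, or 53.8% (25.1% to 80.8%), beside 42.8% of the whole rib list, and rib peaks overlapped 6 of the 7 nasal peaks, beside 68.2% of the whole nasal list. Requiring 50% of each peak to be shared left 3 of the 13 rib peaks (23.1%, beside 28.4% of the whole list), and the first 50% of both lists gave 2 of 8 (25%, beside 38.5%).

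Chsy1, which lengthens the chondroitin chain, held 19 rib peaks on chromosome 7, 2 of Class I and 17 of Class II, and 11 nasal peaks. Its peaks stood later in the list than those of Chst11, Papss2 and Slc26a2, with the earliest at place 2252 and a median of 16366. A tile of that width held a rib peak at place 2252 or earlier in 12.2% of cases, so Chsy1 was rich in peaks without holding an especially early one. The earliest peak, 73292156 to 73292366, had its nasal partner at place 1286, the earliest nasal peak of the window, with centres 2.5 bp apart, and 8.36% of tiles held a nasal peak at that place or earlier. The next, 73294981 to 73295172 at place 2443, had no nasal partner within 2650 bp. The third, 73323941 to 73324168 at place 3332, was overlapped by a nasal peak at place 6648 and belonged to a chain of 4 rib and 3 nasal peaks in 4.67 kb, from 73321470 to 73326134.

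Both Class I peaks of Chsy1 were overlapped in nasal cartilage. One, 73205287 to 73205589 at place 18550, stood alone, with the widest gap of the window, 41.3 kb, above it, and shared 291 bp with a nasal peak at place 9408. The other, 73254201 to 73254432 at place 22933, lay in the longest chain, 5 rib peaks in 16.4 kb from 73246888 to 73263320, and its nasal partner stood at place 4707. In percent of the list these are 82.9% in rib and 27% in nasal, the reverse order of the Papss2 peak at place 149. Nasal peaks overlapped 9 of the 19 rib peaks, or 47.4% (24.4% to 71.1%), near the 42.8% of the whole rib list. Rib peaks overlapped 9 of the 11 nasal peaks, or 81.8% (48.2% to 97.7%), an interval that includes the 68.2% of the whole nasal list. The nasal peaks left over, 73224400 to 73224548 and 73224794 to 73224806, neighboured each other and lay 18810 bp and 19204 bp from the nearest rib peak. Past the upper window end, the next rib peak was a Class II peak 2.81 kb away, and the last one inside stood 14.1 kb from that end.

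Chst11, the chondroitin 4-O-sulfotransferase, held 37 of the 79 rib peaks (46.8%) and 23 of the 46 nasal peaks (50%). Of its rib peaks on chromosome 10, 35 were Class II and 2 Class I. Every one of the 23 nasal peaks was overlapped by a rib peak (100%, interval 85.2% to 100%), where 68.2% of the whole nasal list was. Nasal peaks overlapped 23 of the 37 rib peaks, or 62.2% (44.8% to 77.5%), where 42.8% of the whole rib list was. Requiring 50% of each peak to be shared left 15 of the 23 nasal peaks (65.2%) and 15 of the 37 rib peaks (40.5%), beside 45.1% and 28.4% of the whole lists. Each nasal peak met a single rib peak, and centres of the pairs lay a median of 32.5 bp apart, against 35 bp over the whole lists.

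The Chst11 peaks were strung along the window rather than gathered at 1 place. The longest chain, with neighbours at most 10 kb apart, ran from 82593511 to 82628895 and held 12 rib peaks, all Class II, in 35.4 kb, of which 10 were overlapped by 10 nasal peaks. A chain of 5 Class II peaks in 24.5 kb, 82557119 to 82581629, preceded it, with 3 nasal peaks, and a chain of 3 in 5.8 kb, 82640754 to 82646556, followed it, with 2 nasal peaks. In the 12-peak chain the rib places ran from 682 to 18414, so early and late places stood side by side within a few kb. The widest gap between rib peaks, 44.1 kb, separated the peak at 82705014 from the others.

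The earliest Chst11 peaks lay at both ends of the window and in this chain. The peak 82380745 to 82380886 stood at place 280, 82705014 to 82705218 at place 436 and 82593511 to 82593654 at place 682, and all 3 were Class II with a nasal partner, at nasal places 1354, 14297 and 1387. The middle one of these was thus in the first 1.58% of the rib list and 82% of the way down the nasal list. The earliest nasal peak, 82628710 to 82628933, stood at place 606 and met the rib peak at place 1058. Among tiles of that width 3.22% held a rib peak at place 280 or earlier and 6.9% a nasal peak at place 606 or earlier. The first of these rib peaks lay only 0.816 kb inside the lower window end, and another Class II peak, at place 12069, stood 0.584 kb outside it, so the window end divides neighbouring peaks. At the upper end the next Class II peak stood 4.21 kb outside.

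The 2 Class I peaks of Chst11 stood in the same chain of 4 rib peaks in 12 kb. The peak 82447813 to 82448000, at place 4688, shared 137 bp with a nasal peak at place 1368. The peak 82450282 to 82450590, at place 24881, had its nearest nasal peak 2332 bp away. A Class II peak at place 4265, 82444374 to 82444607, lay in that chain too and had no nasal partner.

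Ext1, the heparan polymerase subunit, had no peak shared between the tissues, and its 5 rib peaks were close to the tile mean of 4.4. Its window on chromosome 15 was the widest and held 5 rib peaks, all Class II, and 1 nasal peak. The rib peaks stood at places 22792, 26246, 20339, 14888 and 22797, all in the last 50% of the list, and none was overlapped by a nasal peak (0 of 5, interval 0% to 52.2%). The nasal peak, 53090841 to 53091020, stood at place 15881 of 17440 and lay 21518 bp from the nearest rib peak. Of the tiles of that width, 57.3% held a rib peak at place 14888 or earlier and 56.1% a nasal peak at place 15881 or earlier, so places like these are common.

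Of the 5 Ext1 rib peaks, 3 lay in a chain of 8.46 kb, 53047465 to 53055928, 1 at 53069145 to 53069322, and 1 alone at 52894600 to 52894729, with 152.7 kb free of rib peaks between it and the others. Below the window the nearest rib peak stood 286.1 kb from its end and above it 144.7 kb. No Class I peak lay in the window. The interval of the overlap reaches past 29.3%, the whole-list share for rib peaks of both classes in the last 50% of the list. It also includes 13.9%, the whole-list share weighted to the class and place of these 5 Class II peaks. A lower overlap than in the whole list was thus not detectable with 5 peaks.

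**Figure D3:**
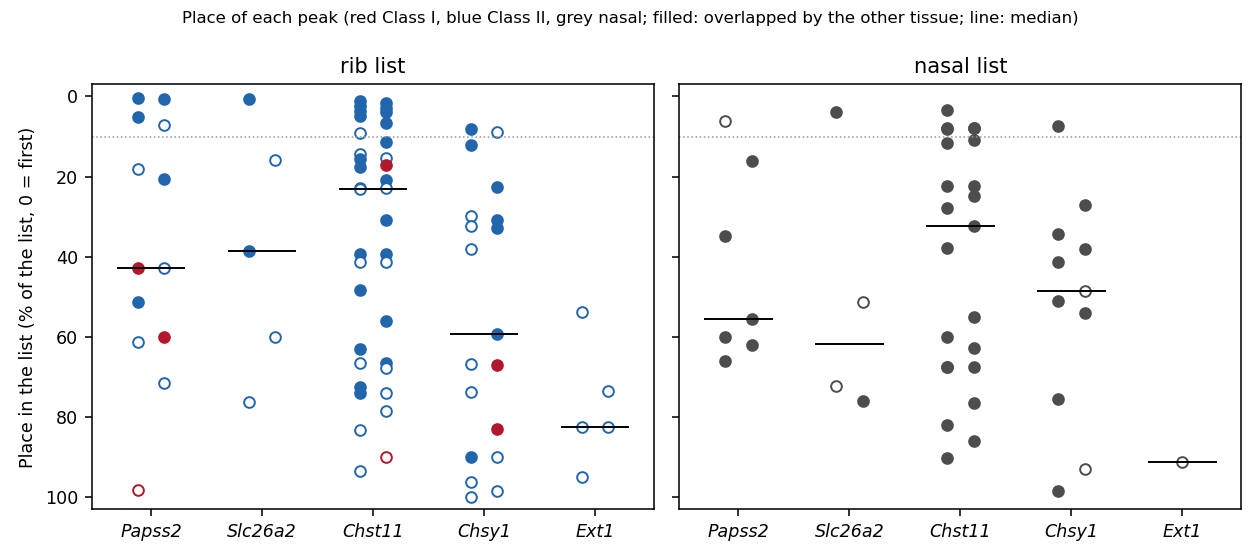
Place of every peak in its list, in percent of the list with the first peak at the top, for the rib list on the left and the nasal list on the right, by gene window. Filled points are overlapped by a peak of the other tissue, red is Class I, blue Class II and grey nasal, black lines are medians, and the dotted line marks the first 10%; Papss2, Slc26a2 and Chst11 have points near the top of the rib list, whereas all Ext1 points stand below 50%.

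By place, the members leaned to the early part of the rib list. Of the 79 rib peaks 16 stood in its first 10% (20.3%), all Class II, 9 of them in the Chst11 window, 4 in Papss2, 2 in Chsy1, 1 in Slc26a2 and 0 in Ext1. That is 16 of 72 Class II members, or 22.2% (13.3% to 33.6%), where 12.2% of all Class II peaks stood there, and 0 of 7 Class I members, where 3.25% of all Class I peaks did. Median place was 6391 in Chst11, 10661 in Slc26a2, 11796 in Papss2, 16366 in Chsy1 and 22792 in Ext1. In the nasal list 8 of 46 peaks stood in the first 10% (17.4%), 5 of them in Chst11.

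No label explains the order of the lists, and beyond their early part it partly followed position. In the first 10% of the rib list 2.46% of peaks had another peak at most 5 places away that lay within 1 Mb on the same chromosome, and between 60% and 70% of the way down 35.3% had one. Such pairs occurred among the members. The Chst11 peaks at places 11400 and 11402 and those at 18414 and 18419, and the Ext1 peaks at 22792 and 22797, stood at most 5 places apart in the list and within 1 Mb of each other, and other rib peaks lay between the members of the latter pairs. Over the members 13 of 79 rib peaks had such a neighbour (16.5%), beside 18.7% of the whole list. An order among late places therefore carries little meaning. The medians and percents given for late peaks describe only where they stood in the lists and may partly follow position.

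Class I peaks were a smaller part of the rib peaks here than in the whole list. They made up 7 of the 79 rib peaks, or 8.86% (3.64% to 17.4%), where 24.6% of the whole rib list was Class I. Both classes were denser than over the whole span, as the windows held 0.103% of all Class I and 0.345% of all Class II peaks in 0.0509% of its length. The 7 were divided into 3 in Papss2, 2 in Chst11 and 2 in Chsy1, and the Slc26a2 and Ext1 windows had none. Nasal peaks overlapped 5 of the 7, or 71.4% (29% to 96.3%), beside 68.8% of all Class I peaks. Of the 72 Class II peaks they overlapped 36, or 50% (38% to 62%), beside 34.4% of all Class II peaks. That 34.4% is not weighted to place, and Class II members stood early in the list more often than all Class II peaks. Early rib peaks were also overlapped more often in the whole list. Without the Chst11 window the Class II share was 37.8%. Whether Class II overlap exceeded the whole list at like places was not tested.

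Over the 5 windows nasal peaks overlapped 41 of 79 rib peaks, or 51.9% (40.4% to 63.3%), and rib peaks overlapped 40 of 46 nasal peaks, or 87% (73.7% to 95.1%). The whole lists gave 42.8% and 68.2%. Overlap was more frequent among early peaks in the whole rib list, with 81.7% in its first 10% and 29.3% in its last 50%, and the members were overlapped 13 of 16 times (81.2%) and 11 of 34 times (32.4%) there. When the whole-list shares were weighted to the class of the members and to the steps of 10% of the list in which they stood, a comparison chosen after the data were seen, they gave 33.5 of 79 rib peaks (42.4%) and 32.5 of 46 nasal peaks (70.7%).

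The surplus over the weighted numbers lay mostly in Chst11. There 23 rib peaks were overlapped beside a weighted 17, and 23 nasal peaks beside 16.9. The corresponding numbers were 9 and 6.75 rib peaks in Chsy1, 7 and 6.96 in Papss2, 2 and 2.09 in Slc26a2, and 0 and 0.696 in Ext1. For Chst11 the rib interval of 44.8% to 77.5% included the weighted 46%. Its nasal interval of 85.2% to 100% stood above the weighted 73.4%. Without the Chst11 window the shares over the other 4 were 42.9% of rib peaks, 73.9% of nasal peaks and 37.8% of Class II peaks, each near the whole-list value. Differences between windows were not tested, as peaks of 1 window neighbour each other and are not independent.

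**Figure D4:**
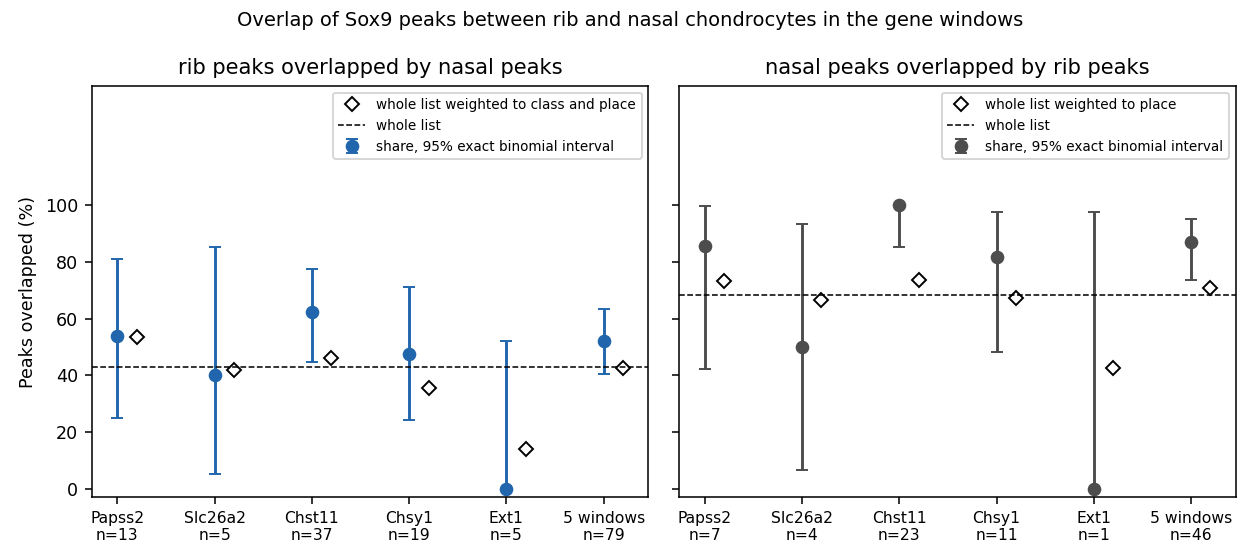
Percent of rib peaks overlapped by nasal peaks (left) and of nasal peaks overlapped by rib peaks (right) in each window and in the 5 windows together, with 95% exact binomial intervals and the number of peaks under each name. The dashed line is the whole list (42.8% and 68.2%). Diamonds are the whole list weighted to the place of the members, and for rib also to their class. The interval of Chst11 stands above the dashed line in both panels, with 62.2% and 100%. In the rib panel it includes the weighted 46%, and in the nasal panel it stands above the weighted 73.4%.

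Members were often neighbours of each other. Of the 79 rib peaks 54 (68.4%) lay in chains of at least 3 peaks spaced at most 10 kb apart, where 28.3% of the whole rib list did. They were 26 of 37 peaks in Chst11, 15 of 19 in Chsy1, 10 of 13 in Papss2, 3 of 5 in Ext1 and 0 of 5 in Slc26a2. These counts depended on the spacing allowed: at 5 kb they were 14 in Chst11 and 0 in Ext1, and at 25 kb 4 in Slc26a2. Whether chains were more frequent here than in other stretches with as many peaks was not tested. Widths were like those of the whole list, with a median of 199 bp and a range of 52 to 444 bp for the rib members beside a median of 180 bp over all rib peaks, and 173.5 bp for the nasal members beside 182 bp.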

How the data were processed

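The authors deposited 4 lists of Sox9 peaks, the whole rib list, its Class I and Class II parts and a nasal list, as positions without height or significance. Positions are on mm9, per the submitters' processing notes. No aligner, peak caller or class definition is given in the sources used here. The list names all carry the label FDR1, and the whole rib list also the label Unfiltered, which the nasal list lacks. These labels are not explained, so whether the rib and nasal lists were filtered alike is unknown. Per the labels' protocols, 20000000 cells fixed with 1% formaldehyde for 10 minutes and 9 μg of antibody went into each precipitation, and libraries had 18 cycles of PCR. Starts were made 1-based. Overlap meant at least 1 shared bp. Tiles were counted by peak centre. The members, the lists and the 42 pathway genes were chosen with earlier results of these data known. Peaks were named by a rule that takes all Class I peaks, the earliest peaks by place, the earliest overlapped peaks, the longest chain, the widest gap and the window ends; other named peaks were chosen after their values were seen. Peak counts for other pathway genes, and motifs under peaks, need an mm9 annotation or genome and were not run. Routines were tested on simulated lists and against bedtools 2.31.1, and Python 3.11.15, numpy 2.4.6, pandas 2.3.3 and scipy 1.17.1 were used.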

Additional observations from a re-analysis of the deposited data

How the results depend on the processing

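Of 189 recomputed values 154 stayed within the binomial interval of the reported share or within 1.5 times the reported count, 52 of the 61 over the 5 windows and 102 of the 128 for single windows. Some could not move, such as the Class I overlap without the Slc26a2 or Ext1 window, which held no Class I peak. Intervals from few peaks were wide, so a fall from 40% to 20% of rib peaks in the Slc26a2 window counted as within. The tally is therefore no measure of stability. With at least 50% of both peaks shared, 32.9% of rib, 56.5% of nasal and 31.9% of Class II peaks were overlapped, beside 28.4%, 45.1% and 24.2% of the whole lists. In the first 50% of both lists 45 rib and 23 nasal peaks were left, and 40% of rib, 100% of Class I (2 of 2) and 37.2% of Class II peaks were overlapped, beside 38.5%, 69.3% and 31.6% of the whole lists. Leaving out each window in turn gave 42.9% to 55.4% for rib, 73.9% to 90.5% for nasal, 60% to 80% for Class I, 37.8% to 53.7% for Class II peaks, and a Class I share of 6.06% to 11.9%. The lowest rib, nasal and Class II values were those without Chst11. Rib peaks numbered 70 with windows cut by 20 kb at both ends and 92 with windows widened by 50 kb. Among tiles that held a peak, as many rib peaks were held by 53.1% for Ext1, 23.3% for Slc26a2, 3.77% for Papss2 and 0.571% for Chsy1, and as many nasal peaks by 22.9% for Slc26a2, 10.6% for Papss2 and 2.03% for Chsy1. No paired analysis was possible because each tissue had 1 Sox9 library. Without heights or depth, the strength of a peak cannot be compared between tissues.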
